A study of Rattus norvegicus with 12 samples.

Results

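Mixed glial cell cultures from neonatal rat brain were exposed for 6 h to monocyte/macrophage (M/M) cytokines or to additional medium, and gene expression was measured on 1 oligonucleotide array per culture. The comparison rests on 6 of the 12 arrays of the series: the 3 arrays labelled M/M and the 3 arrays labelled control, chosen by their titles and paired by the experiment code that each title carries. The M/M mixture held recombinant rat IL-1α, IL-1β, IL-12p40 and TNF-α at 10 ng/ml each by the labels, and the study's methods list IL-6 as well. The Th1 mixture (IL-2, interferon-γ, TNF-α and G-CSF) and the Th2 mixture (G-CSF, IL-10, porcine TGF-β1 and IL-5 by the labels, and IL-4 by the methods) were used only to show where the M/M response differed. All cultures, control cultures included, were prepared by shake-off with a shortened removal of microglia and kept 6 to 8 days in a defined medium to which 2% fetal bovine serum had been added. The genes Il1a, Il1b and Tnf, which encode cytokines of the M/M mixture, are themselves among the genes measured.

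IL-1 and TNF bind receptors on astrocytes and microglia that free the transcription factor NF-κB from its inhibitor IκB, so that NF-κB enters the nucleus and binds κB elements in DNA. The same receptors activate kinases that raise AP-1 activity, and early targets of both arms include chemokines, adhesion molecules, further cytokines and the inhibitors that end the signal. In glia these programmes are known from multiple sclerosis lesions, where infiltrating macrophages and resident microglia are a source of the cytokines.

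The values are signals calculated by the study with dChip and deposited on a linear scale with no unit. Replicates were 3 separate experiments on different cultures, called experiments 1, 2 and 3 throughout, and values are given in that order. Median signals were 60.9, 57.9 and 42.2 on the M/M arrays, against 59.1, 38.4 and 26.9 on the control arrays. Signals below 1 numbered 0, 1 and 167 on the M/M arrays, against 1, 3 and 290 on the control arrays. The low end of the scale thus differed in experiment 3, and ratios of dim probe sets are not comparable between experiments. The median log2 ratio of M/M over control was 0.00, 0.39 and 0.62 in the 3 experiments, with a mean of 0.33, and a ratio of the deposited signals includes that shift. Ratios called centred below are differences of log2 signals after each array's median was subtracted, which left a median of -0.10 over all 8740 probe sets.

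The 3 cytokine arrays of experiment 3 went against their labels. Across the 4370 probe sets with a mean signal at or above that of the median probe set, deviations from the mean of the 3 cytokine arrays of an experiment were compared between experiments. Arrays with the same label correlated at r = 0.64 (Th1), 0.66 (M/M) and 0.76 (Th2) between experiments 1 and 2. The array labelled M/M of experiment 3 correlated at r = 0.02 with the M/M arrays of experiments 1 and 2 and at r = 0.60 with their Th1 arrays, whereas the array labelled Th2 of experiment 3 correlated at r = 0.45 with their M/M arrays and that labelled Th1 at r = 0.63 with their Th2 arrays. These are correlations across genes that share an array and are given as a description. Cd74, the invariant chain of MHC class II, had signals of 29.9, 5.37 and 956 in cultures labelled M/M, 874, 219 and 1.4 in cultures labelled Th1 and 26.3, 2.3 and 2.5 in control cultures. Il1b likewise had a signal of 2145 on the array labelled Th2 of experiment 3, against 97.6 and 48.3 on the Th2 arrays of experiments 1 and 2. The cause was not tested and no array was reassigned. Values of experiment 3 are those of the array labelled M/M, and results are given with all experiments and with experiments 1 and 2 alone.

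**Figure D1:**
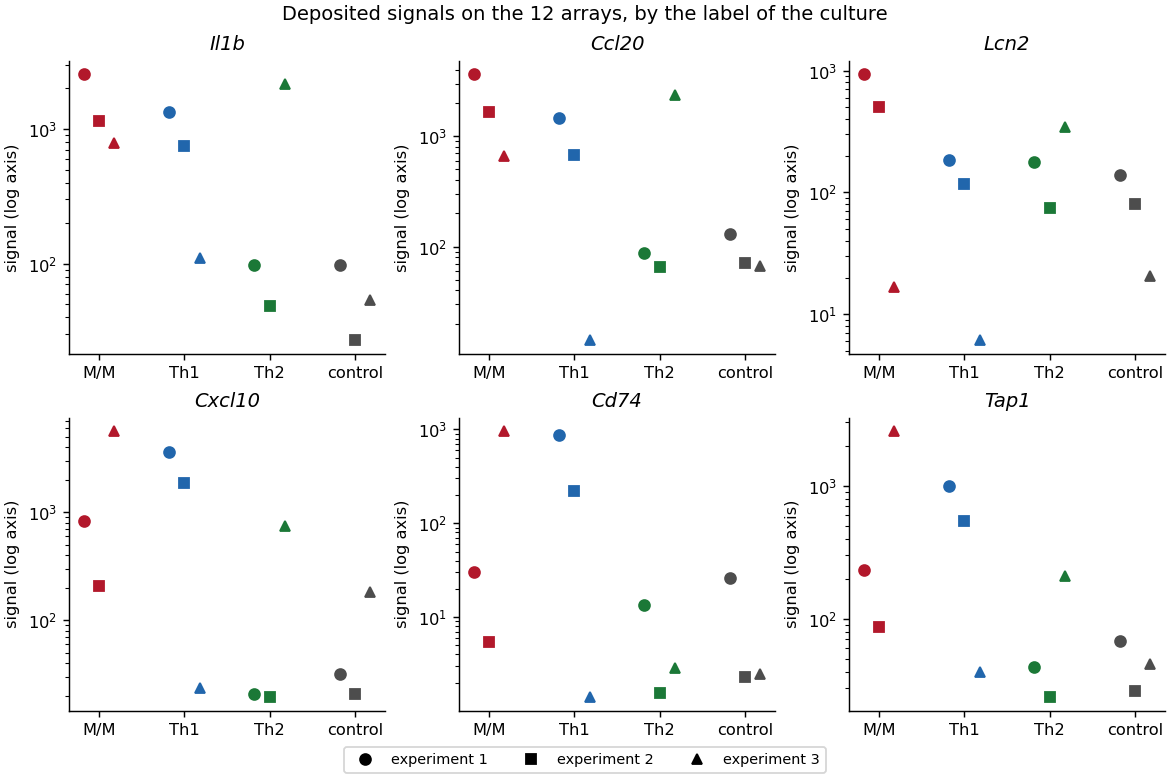
Deposited signal (log scale) of 6 genes on each of the 12 arrays, grouped as M/M, Th1, Th2 and control, with 1 marker shape per experiment. Il1b, Ccl20 and Lcn2 were high on the M/M arrays of experiments 1 and 2 and on the array labelled Th2 of experiment 3, Il1b and Ccl20 also on the Th1 arrays of experiments 1 and 2, and Cd74 was high on the Th1 arrays of experiments 1 and 2 and on the array labelled M/M of experiment 3.

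Exposure to M/M cytokines was followed by an increase in a limited set of transcripts. The 12 named genes that passed with the deposited signals included Ccl2, Gch1, Sod2, Junb and Cd14. Those with the largest mean centred ratios among the brighter probe sets included Ccl5, Mmp13, Il1b, Vcam1, Ass1 and Gbp2. That mean includes the array labelled M/M of experiment 3, and none of the latter genes passed with the deposited signals of all 12 arrays. A limma fit of the deposited signals without the arrays labelled Th1 and Th2 of experiment 3 was chosen after seeing the data. There the adjusted p was 0.00392 for Ccl5, 0.0001 for Mmp13 and 1.96e-05 for the brightest Il1b probe set. It was 6.32e-05 for the brighter Vcam1 probe set, 0.00414 for Ass1 and 0.000283 for Gbp2. With the deposited signals of all 12 arrays and the experiment as a block, 23 of 8740 probe sets rose (0.263% of those tested) and 0 fell (0%) at an adjusted p under 0.05, with 1343 higher and 51 lower at an unadjusted p under 0.05. The smallest adjusted p was 0.015. That split included the shift between the arrays. After centring, the same fit of the 12 arrays gave 466 higher and 701 lower at an unadjusted p under 0.05 and called 0 (smallest adjusted p 0.0933), and quantile normalization and a fit without the variance trend each called 0 as well. The 23 probe sets were above control in each of the 3 experiments after centring, 18 of them by more than 2-fold in each, and none of them passed in that centred fit. With experiments 1 and 2 alone and the arrays centred, a test added after the data had been seen, 84 probe sets rose (0.961%) and 36 fell (0.412%), and 20 of the 23 were among those that rose. These 84 included 71 with exactly 1 gene symbol, for 58 genes, and 80 of the 84 were also above control in experiment 3. Of the 36 that fell, 29 were also below control in experiment 3. With the deposited signals of experiments 1 and 2 alone, 34 rose and 0 fell. Tests given below for experiments 1 and 2 are from fits with centred arrays, unless the deposited signals are named. They differ from the fit of all 12 arrays both in the centring and in the experiments used. Counted with no test, 87 probe sets (0.995%) were more than 2-fold higher relative to the array median in every experiment, for 64 genes, and 29 (0.332%) were more than 2-fold lower, for 22 genes. Of these, 71 of the 87 and 5 of the 29 had a mean signal at or above that of the median probe set. That mean takes in the M/M arrays, so a probe set that is high in M/M cultures alone can reach it. Ass1, for example, had a mean of 109 in M/M and 3.30 in control cultures. The 2 counts therefore do not compare how well increases and decreases were measured. After centring, all 3 M/M values were above all 3 control values for 278 of 8740 probe sets and below all 3 for 369. Groups that do not overlap are therefore given below only as a description. Where they are read from deposited signals, the upward shift of the M/M arrays is included. The share of all probe sets that do not overlap in deposited signals is not given here, so those statements have no base rate beside them. The cultures are mixtures, so in every result below more or fewer cells of a type and more or less RNA per cell cannot be told apart.

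Among the 12 genes called with the deposited signals, Ccl2, the chemokine that draws monocytes, was called with the smallest adjusted p. Ccl2 had signals of 5496, 4393 and 6309 in M/M cultures, against 898, 583 and 986 in control cultures (log2 ratio 2.74 ± 0.35 (SE), adjusted p = 0.015). The lowest M/M culture was above the highest control culture. Gch1, GTP cyclohydrolase 1, makes the tetrahydrobiopterin that nitric oxide synthase needs, and its signals were 367, 175 and 346 in M/M cultures, against 40.5, 9.71 and 42.8 in control cultures (log2 ratio 3.46 ± 0.56 (SE), adjusted p = 0.0259). Sod2, the mitochondrial superoxide dismutase, had 2053, 1122 and 595 in M/M cultures, against 326, 229 and 98.8 in control cultures (log2 ratio 2.51 ± 0.40 (SE), adjusted p = 0.0251). Neither gene overlapped between the groups. Junb, an AP-1 subunit, had 563, 380.4 and 819.6 in M/M cultures, against 168, 43.0 and 127 in control cultures (log2 ratio 2.53 ± 0.37 (SE), adjusted p = 0.0251). Cebpb, a C/EBP factor of acute phase genes, had 647, 400.0 and 743 in M/M cultures, against 191, 52.9 and 146 in control cultures (log2 ratio 2.34 ± 0.40 (SE), adjusted p = 0.0385). Egr1, a zinc finger immediate early factor, had 2521, 944 and 1073 in M/M cultures, against 942, 402 and 478 in control cultures (log2 ratio 1.27 ± 0.20 (SE), adjusted p = 0.0251), and its centred log2 ratios of 1.38, 0.64 and 0.52 were smaller in experiments 2 and 3 than in experiment 1.

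The other 6 named genes of this group were not transcription factors. Cd14, the co-receptor for bacterial lipopolysaccharide, had 3433, 2735 and 2185 in M/M cultures, against 773, 365 and 366 in control cultures (log2 ratio 2.55 ± 0.47 (SE), adjusted p = 0.0486). Timp1, an inhibitor of matrix metalloproteinases, had 1840.5, 914 and 2103 in M/M cultures, against 967, 395 and 716 in control cultures (log2 ratio 1.23 ± 0.23 (SE), adjusted p = 0.0486), and the groups overlapped, since the M/M culture of experiment 2 was below the control culture of experiment 1. Abcb1b, a P-glycoprotein efflux pump, had 549.9, 170.5 and 336 in M/M cultures, against 133, 16.1 and 19.8 in control cultures (log2 ratio 3.18 ± 0.59 (SE), adjusted p = 0.0486). Its lowest M/M culture, that of experiment 2, was above its highest control culture, that of experiment 1. Sdc4, a heparan sulphate proteoglycan of the cell surface, had 3653, 2687 and 4401 in M/M cultures, against 1541, 747 and 1394 in control cultures (log2 ratio 1.58 ± 0.28 (SE), adjusted p = 0.0385). Mvp, the major vault protein, had 293, 208 and 249.8 in M/M cultures, against 126, 59.4 and 67.6 in control cultures (log2 ratio 1.64 ± 0.29 (SE), adjusted p = 0.0385). Ifrd1, a transcriptional co-regulator, had 637, 310.1 and 617 in M/M cultures, against 248, 108 and 118 in control cultures (log2 ratio 1.76 ± 0.27 (SE), adjusted p = 0.0251). For Sdc4, Mvp and Ifrd1 every M/M culture was above every control culture. A further 6 called probe sets had no single gene symbol, among them M24067_at and rc_AA875032_at.

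**Figure D2:**
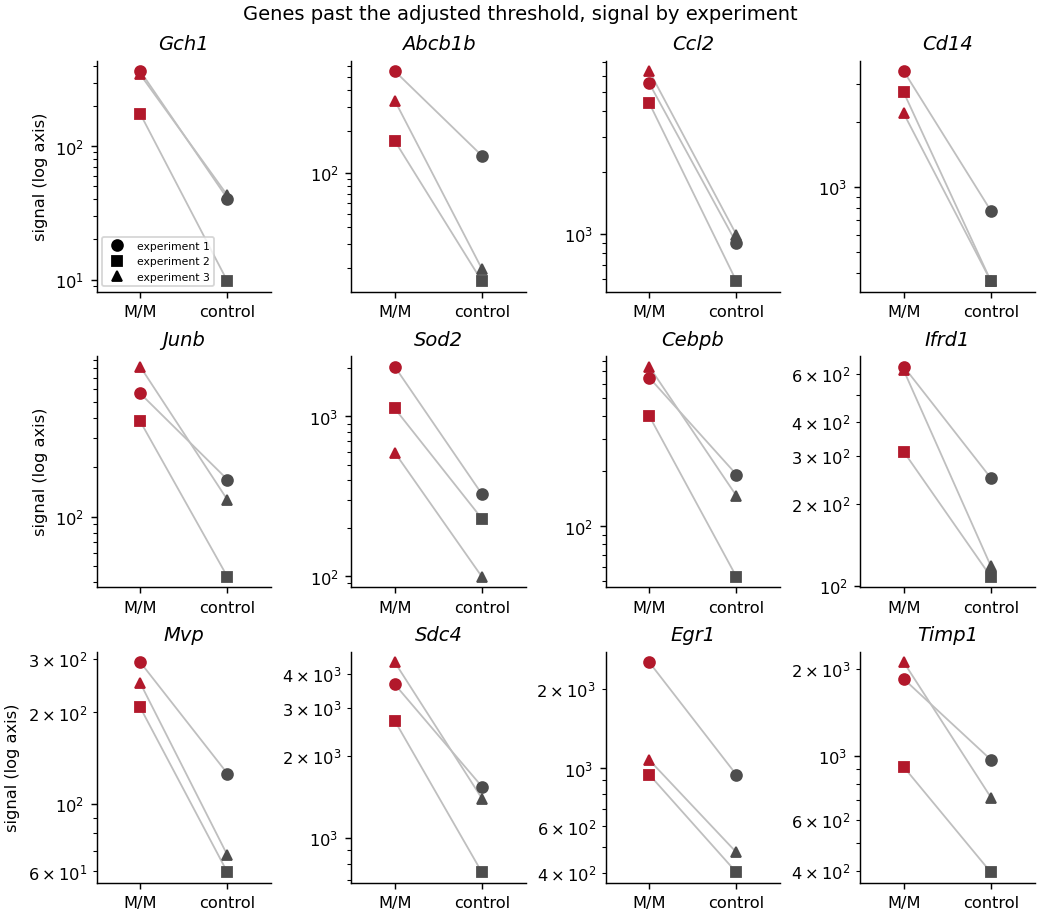
Deposited signal (log scale) of the 12 genes called with the deposited signals, M/M cultures on the left and control cultures on the right of each panel, with lines joining cultures of 1 experiment. Every line is higher at its M/M end, and the smallest adjusted p was 0.015 (Ccl2).

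The measured genes of the NF-κB list were higher in M/M cultures. Beside NF-κB subunits and inhibitors, the list holds other genes of the pathway, such as Birc2 and Ier3. Of its 5 measured genes, 5 had a mean centred log2 ratio above 0, with a median of 1.83. Over all probe sets this held for 3587 of 8740, with a median of -0.10. Nfkb1, which encodes the p105 precursor of the p50 subunit, had signals of 1366, 614 and 1517 in M/M cultures, against 338, 125 and 266 in control cultures, with centred log2 ratios of 1.97, 1.70 and 1.86. Nfkbia, which encodes the inhibitor IκBα and is itself a target of NF-κB, had 1104, 613 and 664 in M/M cultures, against 288, 158 and 90.4 in control cultures, with centred log2 ratios of 1.90, 1.37 and 2.23. Both genes had 3 M/M values above all 3 control values. Neither passed with the deposited signals (adjusted p = 0.0676 for Nfkb1 and 0.152 for Nfkbia), and both rose in experiments 1 and 2 (adjusted p = 0.00147 and 0.00824). Birc2, an inhibitor of apoptosis that acts in TNF receptor signalling, had 108, 48.2 and 14.9 in M/M cultures, against 33.9, 6.65 and 1.7 in control cultures, and Ier3, an early response gene of the same pathway, rose in experiments 1 and 2 on 1 of its 2 probe sets (log2 ratio 2.21 ± 0.19 (SE), adjusted p = 0.00147, and adjusted p = 0.107 on the other).

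The promoters of genes that were higher in all 3 experiments are shown because a κB element can be read in the letters. RefSeq promoters (GRCr8, 250 bases before to 50 after the annotated start) were found for 53 of the 64 genes that were more than 2-fold higher in every experiment. The letters GGNNTTTCC, searched on both strands, stood in 11 of these 53 promoters (20.8%), against 6.05% of all 33469 promoters and 6.11% of the 4191 promoters of genes on the array. They stood in 1 of 11 promoters of the genes called with the deposited signals (9.09%, Mvp) and in 1 of 21 promoters of the genes that were more than 2-fold lower (4.76%). The 11 genes were Ccl20, Cxcl10, Cxcl6, F10, Icam1, Il6, Mvp, Nfkb1, Nfkbia, Tap1 and Vcam1. The letters TGANTCA of AP-1 stood in 17.0% of the 53 promoters and 7.33% of all promoters, TTGCNNAA of C/EBP in 17.0% and 10.6%, and TATAAA in 34% and 14.2%. A match is a description of the letters and not a bound site, and the genes were chosen by their measured ratios. In the 5 promoters below, each written 5′ to 3′ along the gene, capitals mark the letters that matched GGNNTTTCC on either strand. Nfkbia (chr6:78597023-78597322, minus strand) held matches that began 180 and 31 bases before the start, Icam1 (chr8:27829595-27829894, plus strand) at 218 and 149, Vcam1 (chr2:206742734-206743033, minus strand) at 246 and 93, Cxcl10 (chr14:15988816-15989115, plus strand) at 186 and Il6 (chr4:5894526-5894825, minus strand) at 67.
Nfkbia: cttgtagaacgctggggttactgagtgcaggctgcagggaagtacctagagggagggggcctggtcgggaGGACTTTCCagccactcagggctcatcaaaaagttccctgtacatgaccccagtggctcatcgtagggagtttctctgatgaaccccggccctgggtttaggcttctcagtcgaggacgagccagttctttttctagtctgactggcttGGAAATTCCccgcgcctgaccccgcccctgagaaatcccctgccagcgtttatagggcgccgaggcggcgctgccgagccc
Icam1: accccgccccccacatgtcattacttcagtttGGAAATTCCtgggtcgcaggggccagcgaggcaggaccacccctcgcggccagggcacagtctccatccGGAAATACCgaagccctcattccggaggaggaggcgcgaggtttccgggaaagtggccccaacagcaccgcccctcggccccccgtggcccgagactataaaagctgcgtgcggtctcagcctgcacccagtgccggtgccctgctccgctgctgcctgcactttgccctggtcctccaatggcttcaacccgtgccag
Vcam1: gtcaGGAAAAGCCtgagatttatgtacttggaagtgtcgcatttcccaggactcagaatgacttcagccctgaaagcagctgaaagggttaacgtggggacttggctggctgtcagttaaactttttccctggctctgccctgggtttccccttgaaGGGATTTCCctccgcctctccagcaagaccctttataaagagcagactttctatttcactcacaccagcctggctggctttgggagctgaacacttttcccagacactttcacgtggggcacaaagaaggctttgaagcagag
Cxcl10: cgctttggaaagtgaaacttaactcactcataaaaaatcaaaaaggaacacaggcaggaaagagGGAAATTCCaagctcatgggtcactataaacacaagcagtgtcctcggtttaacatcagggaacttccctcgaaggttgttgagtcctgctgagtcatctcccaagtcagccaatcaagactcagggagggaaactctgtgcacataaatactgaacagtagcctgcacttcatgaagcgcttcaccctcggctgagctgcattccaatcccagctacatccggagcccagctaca
Il6: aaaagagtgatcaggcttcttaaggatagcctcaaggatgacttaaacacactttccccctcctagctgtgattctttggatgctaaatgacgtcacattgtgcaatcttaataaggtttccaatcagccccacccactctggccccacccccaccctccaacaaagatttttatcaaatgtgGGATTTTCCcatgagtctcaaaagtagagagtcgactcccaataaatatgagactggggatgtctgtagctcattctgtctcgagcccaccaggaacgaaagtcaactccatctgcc

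Chemokines were among the largest increases. Of 6 measured CC chemokine genes, 5 had a mean centred log2 ratio above 0 (median 2.65), 1 rose with the deposited signals (Ccl2, above) and 4 rose in experiments 1 and 2. Ccl20, which draws cells that carry CCR6, had signals of 3642, 1652 and 657 in M/M cultures, against 129, 71.3 and 66.7 in control cultures, with centred log2 ratios of 4.78, 3.94 and 2.65. It missed the threshold with the deposited signals (adjusted p = 0.229) and rose in experiments 1 and 2 (log2 ratio 4.36 ± 0.25 (SE), adjusted p = 0.000282). Ccl5 (RANTES), which draws T cells and monocytes, had 736, 71.2 and 3291 in M/M cultures, against 14.7, 3.93 and 2.2 in control cultures, and Ccl3 (MIP-1α) had 914, 524 and 686 in M/M cultures, against 154, 12.3 and 141 in control cultures. Both rose in experiments 1 and 2 with the arrays centred (adjusted p = 0.0197 for Ccl5 and 0.0192 for Ccl3). With the deposited signals of these experiments neither passed (adjusted p = 0.0908 for Ccl5 and 0.154 for Ccl3). For Ccl5 the ratio was widest in experiment 3, and for Ccl20 it was narrowest there. The Ccl5 ratio of experiment 3 rests on a control signal of 2.2, far below the median of its array, so its size is uncertain.

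The CXC and CX3C chemokines were less even, with 7 of 9 measured genes above 0 (median 0.43), 0 called with the deposited signals and 4 that rose in experiments 1 and 2. Cxcl10, an attractant of T cells that is induced by interferons and NF-κB, had signals of 840.1, 207 and 5626 in M/M cultures, against 31.9, 20.9 and 181 in control cultures, with an adjusted p of 0.00834 in experiments 1 and 2. Cxcl2, which draws neutrophils, had 957, 346 and 76.3 in M/M cultures, against 50.6, 6.25 and 31.2 in control cultures (adjusted p = 0.000683 in experiments 1 and 2), and its centred log2 ratios were 4.20, 5.20 and 0.64. Cxcl6, a further neutrophil attractant, had 1449.9, 397 and 98 in M/M cultures, against 49.97, 37.1 and 23.7 in control cultures (adjusted p = 0.0071). Cx3cl1, or fractalkine, the membrane-bound ligand of the microglial receptor CX3CR1, had 1299, 473 and 1652 in M/M cultures, against 187, 66.4 and 113 in control cultures (adjusted p = 0.00221). Cxcl2 and Cxcl6 were thus raised most in experiments 1 and 2, whereas Cxcl10 had its highest signal on the array labelled M/M of experiment 3.

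Transcripts of IL-1, a cytokine that had been added to these cultures, were higher in M/M cultures. Il1b had signals of 2544, 1145 and 791 in M/M cultures, against 98.5, 26.9 and 53.4 in control cultures, with centred log2 ratios of 4.65, 4.82 and 3.24. With the deposited signals its log2 ratio did not pass (log2 ratio 4.66 ± 1.13 (SE), adjusted p = 0.113), and in experiments 1 and 2 it rose with the smallest adjusted p of the named genes (1.2e-05). Il1a had 428, 199.7 and 149 in M/M cultures, against 19.7, 8.52 and 40.8 in control cultures, and rose in experiments 1 and 2 (adjusted p = 0.00051). For both genes every M/M culture was above every control culture. Il6, which encodes a pleiotropic cytokine of the acute phase, had 189, 56.2 and 32.1 in M/M cultures, against 6.45, 9.87 and 2 in control cultures, and did not pass (adjusted p = 0.0681 with the deposited signals and 0.126 in experiments 1 and 2). Csf1, the growth factor of microglia and macrophages, rose in experiments 1 and 2 with signals of 177, 122 and 218 in M/M cultures, against 61.2, 32.1 and 72.3 in control cultures (adjusted p = 0.0167). Tnf, whose product was also in the mixture, had 24.5, 29.4 and 45.6 in M/M cultures, against 19.7, 13.1 and 3.6 in control cultures, all below the median signal of their arrays except the M/M value of experiment 3. Of 25 measured cytokine genes 15 were above 0 (median 0.08), and of 9 genes for receptors of the added cytokines 3 were (median -0.05), with 0 receptors called in either test. Tnfrsf11b, which encodes the decoy receptor osteoprotegerin, rose in experiments 1 and 2 (log2 ratio 2.59 ± 0.40 (SE), adjusted p = 0.0269).

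Vcam1 and Icam1, adhesion molecules that bind leukocyte integrins, and Cd44 were higher in M/M cultures in every experiment. Vcam1, the ligand of the integrin VLA-4, had signals of 1343, 383 and 2513 in M/M cultures, against 117, 14.5 and 71.6 in control cultures, with centred log2 ratios of 3.48, 4.13 and 4.48. A dimmer probe set of Vcam1 had centred log2 ratios of 3.37, 1.34 and 4.09 and did not pass in experiments 1 and 2 (adjusted p = 0.0624). Icam1, the ligand of LFA-1, had 1962, 1192 and 3119.9 in M/M cultures, against 410.1, 171 and 397 in control cultures, with centred log2 ratios of 2.22, 2.21 and 2.32 that differed little between experiments. Cd44, the hyaluronan receptor, had 898, 441 and 1000.3 in M/M cultures, against 382, 107 and 181 in control cultures. All 3 rose in experiments 1 and 2 (adjusted p = 0.000605 for Vcam1, 0.00221 for Icam1 and 0.0114 for Cd44) and missed with the deposited signals (adjusted p = 0.127, 0.127 and 0.171). They were 3 of 11 measured adhesion genes, of which 7 were above 0 with a median of 0.27.

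Transcription factors other than NF-κB gave few calls. Of 9 AP-1 genes 6 were above 0 (median 0.37) and 1, Junb, was called with the deposited signals. Fosl1, which encodes the AP-1 subunit Fra-1, had 226, 100.5 and 506 in M/M cultures, against 52.3, 24.9 and 148 in control cultures, and was more than 2-fold higher in every experiment (adjusted p = 0.138 with the deposited signals). Of 25 immediate early genes 17 were above 0 (median 0.12), and 1, Egr1, was called with the deposited signals. In experiments 1 and 2 the listed genes that rose were 2, Klf6 and Zfp36 (adjusted p = 0.0188 for Klf6 and 0.0167 for Zfp36). Klf6 is a zinc finger factor, and Zfp36 encodes the protein tristetraprolin that shortens the life of cytokine mRNAs. Cebpd, a C/EBP factor induced by IL-1 and IL-6, had 1031, 681 and 273 in M/M cultures, against 326, 22.8 and 153 in control cultures (adjusted p = 0.0554 in experiments 1 and 2), and a dimmer probe set of it rose there (log2 ratio 2.00 ± 0.26 (SE), adjusted p = 0.0142). The control culture of experiment 2 was the lowest of the 6 for both Cebpb and Cebpd. Of 15 JAK-STAT genes 10 were above 0 (median 0.35) with 0 called in either test. Stat3, which carries the signal of IL-6, had 122, 125 and 92.2 in M/M cultures, against 58.1, 30.6 and 15 in control cultures (adjusted p = 0.108 with the deposited signals), and the groups did not overlap.

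In nitric oxide synthesis Gch1 was the gene that passed. A dimmer probe set of Gch1 did not pass (adjusted p = 0.0531 with the deposited signals and 0.0953 in experiments 1 and 2). Nos2, the inducible nitric oxide synthase, had signals of 142, 42.9 and 324 in M/M cultures, against 23.2, 24.2 and 4.6 in control cultures, and did not pass (adjusted p = 0.167 with the deposited signals and 0.248 in experiments 1 and 2). Ass1, which regenerates arginine for that enzyme, had 98.9, 15.9 and 213 in M/M cultures, against 3.55, 3.54 and 2.8 in control cultures. It did not pass either (adjusted p = 0.174 with the deposited signals and 0.0791 in experiments 1 and 2). For both genes each M/M culture was above its own control culture, with the highest M/M signal in experiment 3. The other 3 probe sets of Nos2 had adjusted p of 0.611, 0.73 and 0.92. Of 16 measured genes of this list 12 were above 0 (median 0.18). Ptgs2, or cyclooxygenase-2, the inducible enzyme of prostaglandin synthesis, had 450.4, 149 and 56.1 in M/M cultures, against 56.5, 20.8 and 23.9 in control cultures, and rose in experiments 1 and 2 (adjusted p = 0.0462). It was 1 of 18 prostaglandin and lipid mediator genes, 9 of them above 0 (median -0.02). Of 25 antioxidant genes 7 were above 0 (median -0.20), and 1, Sod2, was called with the deposited signals. Gpx1, which encodes a glutathione peroxidase, fell in experiments 1 and 2 (log2 ratio -0.84 ± 0.14 (SE), adjusted p = 0.0377).

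Acute phase and pattern recognition genes rose in part. Lcn2, or lipocalin 2, which binds bacterial siderophores, had signals of 929.9, 501 and 16.6 in M/M cultures, against 139, 80.4 and 20.7 in control cultures. It rose in experiments 1 and 2 (log2 ratio 2.37 ± 0.24 (SE), adjusted p = 0.00348), but its centred log2 ratio in experiment 3 was -0.97. Cp, or ceruloplasmin, a copper-bearing ferroxidase of astrocytes, rose in experiments 1 and 2 (log2 ratio 1.14 ± 0.21 (SE), adjusted p = 0.0482). Fcgr2b, an inhibitory Fc receptor, rose there too (adjusted p = 0.00834) and had an adjusted p of 0.0512 with the deposited signals. The groups overlapped for Lcn2. Of 28 complement and acute phase genes 17 were above 0 (median 0.12), and of 8 pattern recognition and Fc receptor genes 6 were (median 0.53).

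Several matrix metalloproteinases, secreted enzymes that degrade extracellular matrix, were higher in M/M cultures. Mmp13, collagenase 3, had signals of 335, 78.1 and 106 in M/M cultures, against 5.51, 3.07 and 4.9 in control cultures, where all 3 values were far below the array medians. Mmp3, stromelysin 1, had 972, 109 and 128 in M/M cultures, against 11.2, 14.3 and 11.7 in control cultures. Mmp9, gelatinase B, had 378, 100.2 and 273 in M/M cultures, against 98.2, 7.48 and 52 in control cultures. In experiments 1 and 2 the listed genes that rose were 2, Mmp13 and Mmp9 (adjusted p = 0.00259 and 0.0424), and Mmp3 did not pass there (adjusted p = 0.054). With the deposited signals 1 was called, Timp1. With Timp1, these were the genes that stood out of 17 measured metalloproteinases and inhibitors, of which 9 were above 0 (median 0.07). Of 34 proteoglycan and matrix genes 18 were above 0 (median 0.01) and 1, Sdc4, was called.

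Genes of antigen presentation were higher chiefly in experiment 3, where the array labelled M/M resembled the Th1 arrays of the other experiments. Genes induced by interferons were higher by their median in every experiment, and most so in experiment 3. The 14 interferon-induced genes had median centred log2 ratios of 0.69, 1.11 and 1.96, the 10 genes of MHC class I and peptide transport 0.45, 0.00 and 2.10, and the 8 genes of MHC class II -0.04, -0.24 and 1.39. Tap1, a subunit of the peptide transporter of antigen processing, had signals of 234, 85.9 and 2574 in M/M cultures, against 68.2, 28.4 and 45.2 in control cultures, with centred log2 ratios of 1.74, 1.01 and 5.18. RT1-Da, a class II α chain, had 25.0, 23.1 and 895 in M/M cultures, against 15.2, 10 and 16 in control cultures. For Tap1 and RT1-Da the M/M culture of experiment 3 was far above the other 5 cultures. Some of these genes were also higher in experiments 1 and 2. Irf1, an interferon regulatory factor that NF-κB also induces, had 1188, 381 and 4575 in M/M cultures, against 325, 93.8 and 153 in control cultures, and Gbp2, a guanylate binding protein, had 1557, 391 and 2109.9 in M/M cultures, against 149, 10.7 and 93.7 in control cultures. In experiments 1 and 2 Irf1, Gbp2, Mx1, Tap1 and Tap2 rose (adjusted p = 0.0172, 0.00466, 0.0462, 0.0319 and 0.0188), and 0 class II genes did. In the same test 1 gene of the interferon list fell, the receptor gene Ifngr1 (adjusted p = 0.0167). The second probe set of Irf1 did not pass there (adjusted p = 0.639). Gbp2 and Tap1 did not pass with the deposited signals of experiments 1 and 2 (adjusted p = 0.0862 and 0.0924). Mx1, an antiviral GTPase, had 294, 65.1 and 1608 in M/M cultures, against 49.5, 10.7 and 122 in control cultures. Rsad2, or viperin, an antiviral enzyme, had 850.4, 104 and 2926 in M/M cultures, against 27.3, 33.9 and 151 in control cultures, and did not pass in experiments 1 and 2 (adjusted p = 0.125).

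No probe set fell with the deposited signals of all 12 arrays, and 0 fell with those of experiments 1 and 2 alone. The decreases called below passed in experiments 1 and 2 with the arrays centred, and so depend on centring. In that centred fit 1057 probe sets were lower and 514 higher at an unadjusted p under 0.05. With the deposited signals of experiments 1 and 2 the adjusted p was 0.0607 for Apobec1 and 0.109 for Vsir. Apobec1, the cytidine deaminase that edits apolipoprotein B mRNA, had signals of 133, 118 and 80.2 in M/M cultures, against 814, 381 and 266 in control cultures, with centred log2 ratios of -2.65, -2.29 and -2.38. Every M/M culture was below every control culture (log2 ratio -2.47 ± 0.21 (SE), adjusted p = 0.00171 in experiments 1 and 2, and log2 ratio -2.01 ± 0.58 (SE), adjusted p = 0.164 with the deposited signals). Vsir, an immune checkpoint protein of myeloid cells, had 98.3, 80.5 and 85 in M/M cultures, against 349, 173 and 148 in control cultures (adjusted p = 0.00282). Arl11, a small GTPase of the ARF family, had 269.6, 263 and 193 in M/M cultures, against 750.0, 555 and 269.7 in control cultures (adjusted p = 0.00221). St3gal5, the synthase of the ganglioside GM3, had 215, 244 and 135 in M/M cultures, against 509, 418 and 249 in control cultures (adjusted p = 0.00496). Tagln3, a calponin family protein of neural cells, had 57.2, 78.2 and 90.4 in M/M cultures, against 134, 141 and 136 in control cultures (adjusted p = 0.0334). These 5 genes were all among the 15 largest mean decreases with 1 sign in every experiment over the brighter probe sets with 1 symbol. They were the ones with a mean signal at or above the median that were more than 2-fold lower in all 3 experiments. For each of them every M/M culture was below every control culture, for Arl11 by the narrow margin of 269.6 against 269.7. Most of the other large decreases were uneven between experiments. Cxcr4, the receptor of the chemokine CXCL12, had 24.4, 44.7 and 27.1 in M/M cultures, against 102, 45.6 and 64.9 in control cultures, and Dcn, the proteoglycan decorin, had 107, 55.4 and 56.6 in M/M cultures, against 169, 159.6 and 97.2 in control cultures. Neither passed in experiments 1 and 2 (adjusted p = 0.135 for Cxcr4 and 0.133 for Dcn). Man2c1, a cytosolic mannosidase, had 126, 118 and 135 in M/M cultures, against 172, 777 and 108 in control cultures, so that its decrease rested on the control culture of experiment 2.

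Some genes of lipid metabolism and trophic support also fell in experiments 1 and 2. Of 17 cholesterol and fatty acid synthesis genes 2 were above 0 (median -0.59), and 3 fell there by the probe sets chosen for the list. The list medians by experiment were -0.37, -0.87 and -0.45 after centring. The same medians were -0.04, -0.20 and -0.03 for all probe sets and -0.01, -0.37 and 0.05 for ribosomal protein genes. With the deposited signals the list median was -0.16, against 0.33 for all probe sets. Insig1, which restrains sterol synthesis, had signals of 312, 401 and 293 in M/M cultures, against 507, 644 and 438 in control cultures (adjusted p = 0.0336), and the lowest control culture was above the highest M/M culture. Mvk, mevalonate kinase, and Fdft1, squalene synthase, had adjusted p of 0.0419 and 0.0167, with centred log2 ratios of -0.88, -1.59 and -0.92 for Mvk and -1.01, -1.49 and -0.04 for Fdft1. Lpl, lipoprotein lipase, had 202, 160.2 and 196 in M/M cultures, against 498, 208 and 242 in control cultures, and 3 of its probe sets fell. Igf1, a survival factor for oligodendrocytes, had 729.8, 669 and 329.8 in M/M cultures, against 1285, 969 and 357 in control cultures on the brightest of its 5 probe sets (log2 ratio -0.99 ± 0.14 (SE), adjusted p = 0.0187), which was the only 1 of the 5 that passed. Gas6, a ligand of the TAM receptors of microglia, had 361, 253 and 224 in M/M cultures, against 719, 357 and 214 in control cultures (adjusted p = 0.0182), and Ifngr1, the ligand-binding chain of the interferon-γ receptor, had 151, 121 and 55.5 in M/M cultures, against 327, 211 and 40.2 in control cultures (adjusted p = 0.0167). For Gas6 and Ifngr1 the M/M value of experiment 3 was not below its control before centring.

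**Figure D3:**
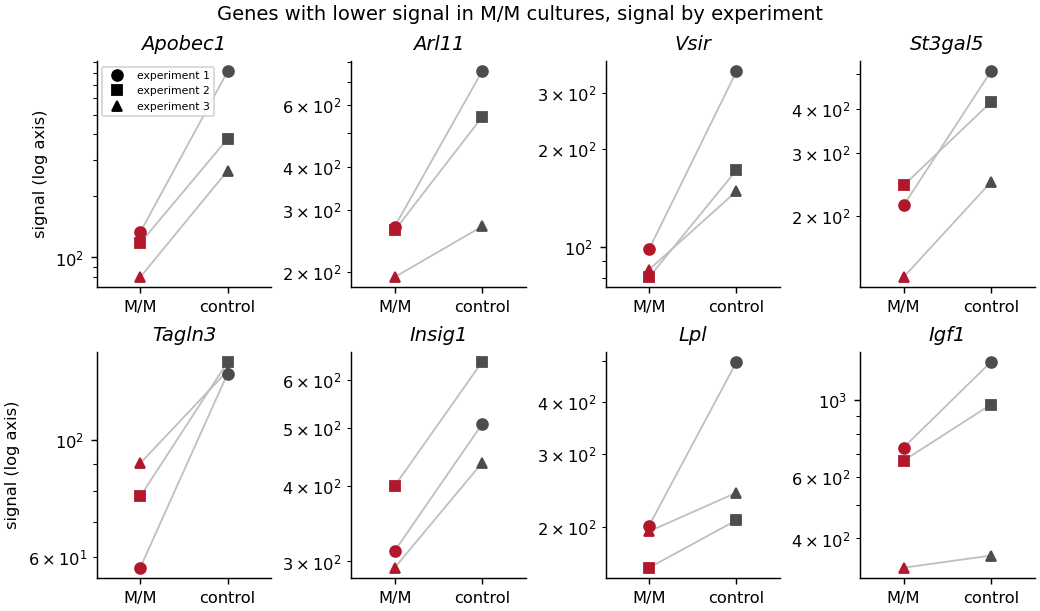
Deposited signal (log scale) of 8 genes that fell in experiments 1 and 2 after centring, M/M cultures on the left and control cultures on the right of each panel, with lines joining cultures of 1 experiment. Apobec1 had 80.2 to 133 in M/M cultures and 266 to 814 in control cultures.

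Neurotrophin and growth factor genes gave few calls. Of 8 neurotrophin and receptor genes 3 were above 0 (median -0.03), and 0 were called in either test. Vgf, which encodes a secreted precursor of neuropeptides, had signals of 799, 502 and 726 in M/M cultures, against 235, 223 and 133 in control cultures (log2 ratio 1.79 ± 0.39 (SE), adjusted p = 0.075), and the groups did not overlap. Of 44 growth factor and receptor genes 20 were above 0 (median -0.08), and of 23 TGF-β, BMP and Id genes 9 were (median -0.16). Hbegf, the heparin-binding ligand of the EGF receptor, had 308, 188 and 521 in M/M cultures, against 164, 49.6 and 259.8 in control cultures (log2 ratio 1.28 ± 0.28 (SE), adjusted p = 0.074), and its other probe set had centred log2 ratios on both sides of 0. Igfbp2, an IGF binding protein, fell in experiments 1 and 2 on 1 of its 3 probe sets (log2 ratio -0.95 ± 0.15 (SE), adjusted p = 0.0269, and adjusted p = 0.0684 and 0.193 on the others).

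The cultures expressed the markers of the glia they are said to hold. Summed signals of the 7 astrocyte markers lay between 5573.0 and 7494 in M/M cultures and between 4525 and 8681 in control cultures, and those of the 8 myelin genes between 8214 and 17303 in M/M cultures and between 4716 and 16108 in control cultures. The 7 astrocyte markers had a median centred log2 ratio of -0.09, the 8 myelin genes -0.25, the 8 microglia and macrophage markers 0.09 and the 9 constant genes, a set that cells keep near even, -0.15. Aldoc, an astrocyte aldolase, fell in experiments 1 and 2 (log2 ratio -0.74 ± 0.13 (SE), adjusted p = 0.0419), and 0 of the 8 myelin genes passed in either test. Summed signals of the microglia markers lay between 7924 and 11269 in M/M cultures and between 4839 and 10887 in control cultures, with Cd74 raised on the array of experiment 3 alone. Fibroblast markers, which the culture could also hold, summed to 2124 to 5787 in M/M cultures and 958.7 to 5980.3 in control cultures, with Col1a1, Col3a1 and Fn1 well above the array medians. The 3 precursor markers summed to 530.4 to 1400.2 in M/M cultures and 604 to 1978 in control cultures (median centred log2 ratio -0.48). Endothelial markers summed to 103 to 122 in M/M cultures and 92.1 to 235 in control cultures, lymphocyte markers to 221 to 331 in M/M cultures and 143 to 301 in control cultures, and neuronal markers to 799.9 to 912 in M/M cultures and 623 to 991 in control cultures. Defining endothelial markers such as Pecam1 and Kdr were dim, with mean signals under the median probe set. The part of these cell types in the results was not tested.

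The remaining lists gave few calls. Of 15 apoptosis genes 9 were above 0 (median 0.10), and Bid, a pro-apoptotic BCL-2 family member, rose in experiments 1 and 2 with signals of 234, 129 and 332 in M/M cultures, against 125, 36.7 and 88.5 in control cultures (adjusted p = 0.0424). The groups overlapped for Bid after centring. Of 16 glycolysis genes 8 were above 0 (median 0.02), and 1 fell in experiments 1 and 2, the aldolase gene Aldoc given above. The gene with the highest ratio, Hk2, hexokinase 2, had 300.4, 127 and 494 in M/M cultures, against 186, 60.8 and 63.7 in control cultures (adjusted p = 0.114 with the deposited signals). Above 0 were 3 of 6 plasminogen activation genes, 4 of 17 heat shock genes, 1 of 6 endothelin and adrenomedullin genes, 6 of 20 cell cycle genes and 15 of 41 ribosomal protein genes, with 0 called in either test.

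**Figure D4:**
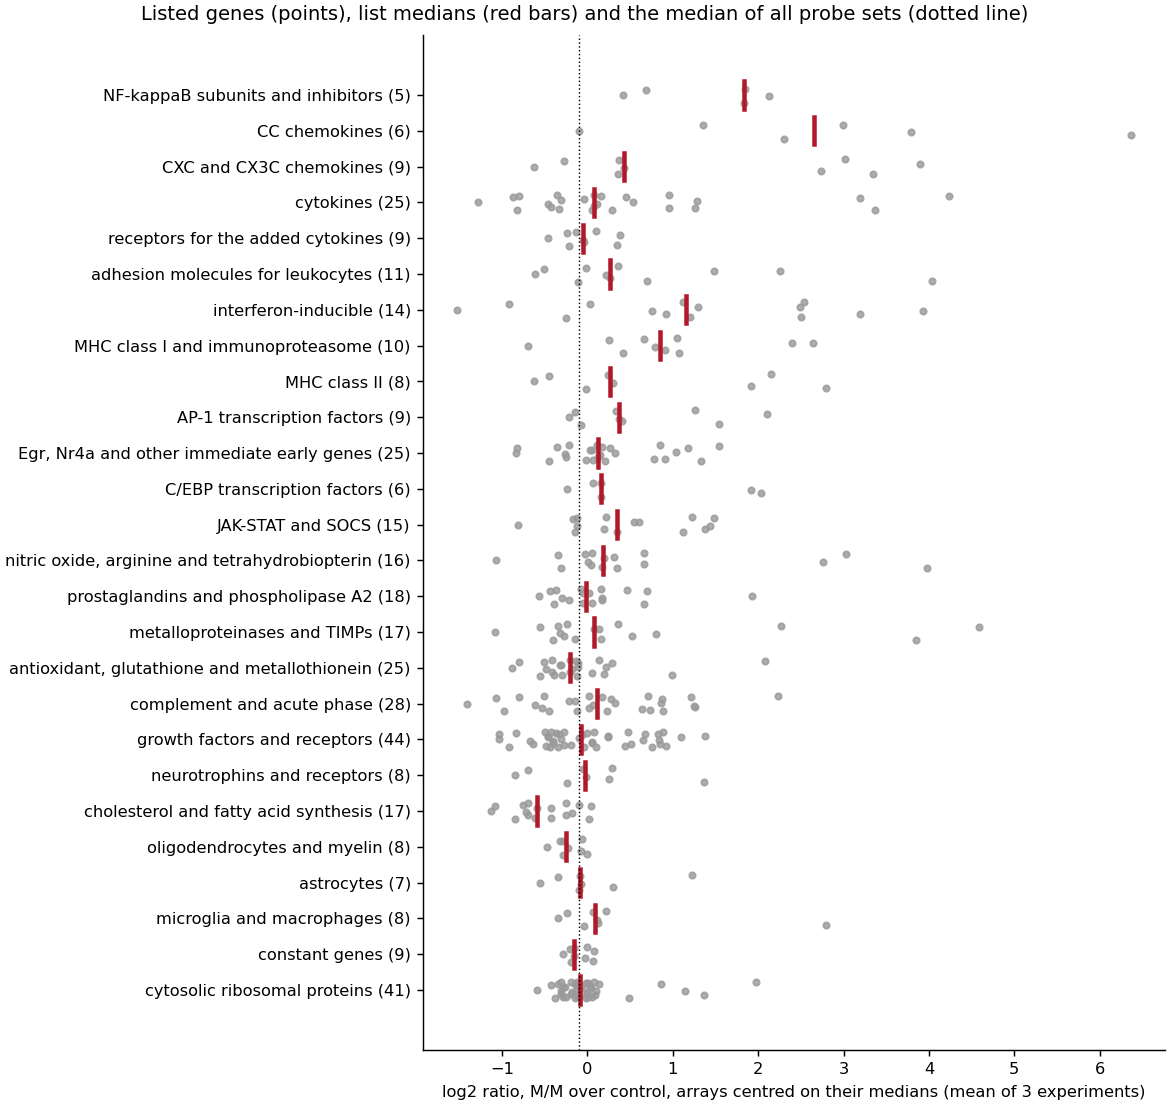
Centred log2 ratio of M/M over control, averaged over 3 experiments, for the genes of 26 lists, with 1 point per gene, a bar at the list median and a dotted line at the median of all probe sets. CC chemokines had a median of 2.65 and the measured genes of the NF-κB list 1.83, against -0.10 for all probe sets.

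The M/M response was set against the Th1 and Th2 responses to show where it differed. These comparisons share the M/M arrays with the one above. With the deposited signals of all arrays, 0 probe sets differed between M/M and Th1 cultures (253 at an unadjusted p under 0.05, smallest adjusted p 0.903) and 0 between M/M and Th2 cultures (343 at an unadjusted p under 0.05). In experiments 1 and 2 alone, with arrays centred, 1 probe set was higher (0.0114%) and 8 were lower (0.0915%) in M/M than in Th1 cultures. Lcn2 was the gene that was higher, with signals of 929.9, 501 and 16.6 in M/M cultures, against 184, 118 and 6.1 in Th1 cultures (log2 ratio 2.20 ± 0.24 (SE), adjusted p = 0.0241). Cd74 (2 probe sets) and Tap1 were among the lower ones (log2 ratio -5.12 ± 0.37 (SE), adjusted p = 0.0034 for Cd74 and log2 ratio -2.40 ± 0.22 (SE), adjusted p = 0.00992 for Tap1), with RT1-S3, a class Ib gene, Irgm2, an interferon-induced GTPase, and Creg1, a secreted glycoprotein of lysosomes. All 8 had the opposite sign in experiment 3. Some genes were higher in M/M than in Th1 cultures in each of the 3 experiments, as labelled. Among probe sets with 1 symbol and a mean signal at or above that of the median probe set, those with the largest mean were Mmp13, Ccl20, Cxcl6, Mmp3 and Il1a. Ccl20 had 3642, 1652 and 657 in M/M cultures, against 1461, 670.3 and 14.1 in Th1 cultures. Both arrays of experiment 3 went against their labels, so experiment 3 cannot be read as a repeat of the others here. Il1b had 2544, 1145 and 791 in M/M cultures, against 1347, 753 and 110.3 in Th1 cultures, and did not pass in experiments 1 and 2 (log2 ratio 0.75 ± 0.15 (SE), adjusted p = 0.212). TNF-α was in both mixtures.

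Against Th2 cultures, 45 probe sets were higher (0.515%) and 7 lower (0.0801%) in M/M cultures of experiments 1 and 2. Il1b had signals of 2544, 1145 and 791 in M/M cultures, against 97.6, 48.3 and 2145 in Th2 cultures (log2 ratio 4.58 ± 0.15 (SE), adjusted p = 8.99e-06 in experiments 1 and 2). In experiments 1 and 2 the M/M values were above both Th2 values, and in experiment 3 the array labelled Th2 was the higher. Chemokines were again raised, with Ccl20 at 3642, 1652 and 657 in M/M cultures, against 88.0, 64.9 and 2345 in Th2 cultures (log2 ratio 4.97 ± 0.25 (SE), adjusted p = 0.00013). Cxcl10, Cxcl2, Vcam1, Icam1, Gch1, Nfkb1, Nfkbia and Cd14 were higher as well (adjusted p = 0.00407, 0.000992, 0.00215, 0.0024, 0.00468, 0.00407, 0.0034 and 0.00196). The lower ones included Apobec1, with 133, 118 and 80.2 in M/M cultures, against 728, 350.1 and 102 in Th2 cultures (log2 ratio -2.07 ± 0.21 (SE), adjusted p = 0.00421), Pmepa1, a target of TGF-β signalling (log2 ratio -1.67 ± 0.23 (SE), adjusted p = 0.0211), and Vsir, Arl11 and Ifngr1. Apobec1 was lower on the arrays labelled M/M than on those labelled Th2 in each of the 3 experiments, with centred log2 ratios of -2.51, -1.62 and -0.88. Both arrays of experiment 3 went against their labels, so the last ratio cannot be read as a repeat of the others.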

How the data were processed

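RNA of 12 cultures was hybridised to Affymetrix rat genome arrays (the A array of the U34 set), 1 array per culture. The authors calculated signal values with dChip and deposited them as intensity on a linear scale. Scaling settings are not given in the sources used here. Of 8799 probe sets, 59 AFFX controls were left out. GEO's platform annotation gave 1 symbol to 7006, several to 308 and none to 1426. The number of arrays limits the precision.

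Signals were floored at 0.1, log2 transformed and tested with limma 3.58.1 (lmFit and eBayes with a variance trend, R 4.3.3) with group and experiment in the model, on all 12 arrays, with Benjamini-Hochberg adjustment across the 8740 probe sets and a threshold of 0.05. The procedure was tested on simulated data. The labels pair arrays by an experiment code, and the methods describe 3 separate experiments. Deviations from group means correlated at 0.439 to 0.708 for arrays of the same experiment and at -0.625 to 0.357 otherwise.

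A gene was named where it passed, was among the 15 largest mean centred increases or decreases with 1 sign in all experiments, was a called, highest or lowest member of a list, or was among the 5 largest differences from Th1 or Th2. Both rankings covered probe sets with 1 symbol and a mean signal at or above that of the median probe set. Other named genes were chosen after their values were seen. Each listed gene was represented by the 1-symbol probe set that was brightest on average. Members and lists were chosen with earlier results of these data known. Alternatives covered the block, scaling, arrays fitted, variance prior, floor, offset, dim filter, the methods' analysis of variance and each experiment or array left out. Fits of experiments 1 and 2 with centred arrays, fits of the 2 groups with centred arrays, fits without the arrays labelled Th1 and Th2 of experiment 3 and the 2-fold count were chosen after seeing the data. Promoters came from RefSeq (GRCr8).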

Additional observations from a re-analysis of the deposited data

How the results depend on the processing

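The count of 23 probe sets that differed between M/M and control cultures depended on the processing. Without the replicate block it was 0, with arrays centred on their medians 0 (smallest adjusted p 0.0933, and 1167 at an unadjusted p under 0.05), with quantile normalization 0 and without the variance trend 0, with unadjusted counts of 297 without the block, 1203 with quantile normalization and 1130 without the trend. With an offset of 16 it was 14, over the brighter probe sets 47, with the 2 groups alone 389 (a fit whose variance prior was extreme) and with the methods' analysis of variance 291. The pairing as a random block gave 29. Leaving out experiments or arrays gave 0 to 70, with 34 without experiment 3. Alternatives chosen after seeing the data gave 120 for experiments 1 and 2 with arrays centred, 43 for the 2 groups with arrays centred, 184 without the arrays labelled Th1 and Th2 of experiment 3, 137 for the same with arrays centred, and 116 for the 2-fold count. M/M against Th1 gave 0, but 9 in experiments 1 and 2 with arrays centred and 107 by the methods' analysis of variance. M/M against Th2 gave 0, but 0 to 23 with arrays or experiments left out, with 23 without experiment 3 and 13 without its array labelled Th2, 52 in experiments 1 and 2 with arrays centred and 136 by the methods' analysis of variance. The median log2 ratio of 0.33 was -0.10 with arrays centred, -0.040 with quantile normalization and 0.18 to 0.50 with experiments left out. The causes were not tested, other than the fewer arrays or probe sets in a fit. The dependence of these counts on scaling, and the labels of experiment 3, limit what the comparison shows.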
